A study of Mus musculus with 30 samples.

Results

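The regions described here carried an H3K27ac peak in untreated Tnm2 cells and in no other peak list of the study. Overlapping or touching peaks of 4 H3K27ac lists were merged on chromosomes 1 to 19 and X, which gave 37671 regions, and the 6556 with a Tnm2 DMSO peak and no peak of the other 3 lists were kept (17.4% of all merged regions). They made up 23.7% of the 27684 regions with a Tnm2 DMSO peak. A second tier of 1151 regions had a peak score of at least 100, which was 6.44% of the 17876 Tnm2 DMSO regions with such a score. Because the regions were chosen by the presence and score of peaks, those values are given as a description, with no test.

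In the study, CK1750 and Tnm2, 2 lines of mouse lung adenocarcinoma cells, received either the solvent DMSO or 1 µM of UNC0638, and the authors profiled histone marks by chromatin immunoprecipitation and sequencing. UNC0638 inhibits G9a and Glp, the enzymes that place H3K9me1 and H3K9me2. All 4 groups were cultured alike in DMEM with fetal bovine serum, so the DMSO groups share the medium and solvent of the treated groups and lack only the inhibitor. The labels give 2 H3K27ac libraries for Tnm2 with DMSO, 2 for Tnm2 with UNC0638, 3 for CK1750 with DMSO (2 replicate numbers) and 2 for CK1750 with UNC0638 (1 replicate number). The replicate numbers are fewer than the biological replicates that the methods of the study state, and which libraries entered a list is not given. Each group had 1 deposited list of peaks, marked as merged, so no value below has a spread between replicates, and groups are compared without a test. With 1 Tnm2 line and 1 CK1750 line, a difference between them holds for these lines only.

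H3K27ac is placed by the acetyltransferases p300 and CBP on nucleosomes beside active promoters and enhancers. Promoter acetylation is often shared between cell types, whereas enhancers far from a gene start vary more from one cell type or cell state to another. In lung adenocarcinoma, enhancers bound by lineage factors of the alveolar epithelium and by AP-1 proteins are known elements of tumour cell identity.

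Sequences of 12 Tnm2 DMSO-only regions are shown on build GRCm38 (mm10). Capitals mark matches to the letters of 20 transcription factor motifs on either strand, and matches may overlap. The first 6 are the central 200 bases of the highest-scoring regions, printed to show what the strongest members of the set look like. The Sfi1 region was atypical in score and width, as described below.
intron of Sfi1, chr11:3143512-3143711, plus strand: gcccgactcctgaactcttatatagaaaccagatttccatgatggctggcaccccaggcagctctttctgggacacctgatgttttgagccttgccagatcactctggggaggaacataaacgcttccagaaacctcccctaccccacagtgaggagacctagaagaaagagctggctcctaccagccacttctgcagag
intron of Prrc2b, chr2:32164839-32165038, plus strand: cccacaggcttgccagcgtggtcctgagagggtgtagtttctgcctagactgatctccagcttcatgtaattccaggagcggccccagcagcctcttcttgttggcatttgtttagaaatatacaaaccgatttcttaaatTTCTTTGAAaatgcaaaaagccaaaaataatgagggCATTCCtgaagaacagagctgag
nearest to Gm4791, chr9:47077358-47077557, plus strand: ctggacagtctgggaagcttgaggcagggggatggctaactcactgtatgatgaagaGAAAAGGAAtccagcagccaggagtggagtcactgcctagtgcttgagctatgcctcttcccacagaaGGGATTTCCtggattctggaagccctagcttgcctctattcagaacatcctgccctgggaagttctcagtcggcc
intron of Csad, chr15:102192428-102192627, plus strand: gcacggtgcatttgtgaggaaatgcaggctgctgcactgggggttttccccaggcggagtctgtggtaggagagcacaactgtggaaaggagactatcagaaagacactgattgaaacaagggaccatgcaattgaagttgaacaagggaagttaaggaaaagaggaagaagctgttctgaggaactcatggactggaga
nearest to Egln3, chr12:54397072-54397271, plus strand: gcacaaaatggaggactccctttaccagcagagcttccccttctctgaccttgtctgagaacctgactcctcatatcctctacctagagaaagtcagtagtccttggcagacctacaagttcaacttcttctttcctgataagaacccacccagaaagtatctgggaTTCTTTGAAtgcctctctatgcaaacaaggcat
intron of Galnt2, chr8:124291208-124291407, plus strand: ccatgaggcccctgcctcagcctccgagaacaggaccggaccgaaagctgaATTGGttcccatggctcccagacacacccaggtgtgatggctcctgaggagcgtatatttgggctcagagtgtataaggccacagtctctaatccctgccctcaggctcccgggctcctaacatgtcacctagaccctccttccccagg
The Sfi1 and Csad windows held no match. The other windows held the STAT letters (TTCNNNGAA, 2 windows), the TEAD letters (GGAATG), the NF-kB letters (GGGANTTCC), the IRF letters (GAAANNGAA) and the NF-Y letters (CCAAT). In the central 200 bases of all merged regions the STAT letters were present in 5.41%, the TEAD letters in 10.6%, the NF-kB letters in 1.12%, the IRF letters in 5.73% and the NF-Y letters in 18.6%. None of the 6 held the AP-1 letters. The next 3 are therefore the highest-scoring regions outside promoters whose central 200 bases held them. They were chosen after their values were seen.
intron of Srd5a1, chr13:69604460-69604659, plus strand: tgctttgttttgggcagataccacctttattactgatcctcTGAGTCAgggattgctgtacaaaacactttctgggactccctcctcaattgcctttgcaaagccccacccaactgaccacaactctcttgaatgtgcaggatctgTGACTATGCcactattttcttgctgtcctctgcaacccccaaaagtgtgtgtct
intron of Brinp1, chr4:68865161-68865360, plus strand: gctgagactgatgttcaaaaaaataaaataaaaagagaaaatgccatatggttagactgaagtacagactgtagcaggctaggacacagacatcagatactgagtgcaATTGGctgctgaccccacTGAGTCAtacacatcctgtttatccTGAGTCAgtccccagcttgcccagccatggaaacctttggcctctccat
intron of Mdga1, chr17:29951235-29951434, plus strand: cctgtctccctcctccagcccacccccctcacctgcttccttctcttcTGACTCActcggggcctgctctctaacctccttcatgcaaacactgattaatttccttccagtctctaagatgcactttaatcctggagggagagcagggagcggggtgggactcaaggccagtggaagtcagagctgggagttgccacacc
The Brinp1 window held 2 AP-1 matches, and the Srd5a1 window also held the NRF2 letters (TGACNNNGC). The AP-1 letters (TGANTCA) lay in the central 200 bases of 8.68% of the Tnm2 DMSO-only regions and of 7.80% of all merged regions, and the NRF2 letters in 8.31% and 9.18%. The last 3 are RefSeq promoter windows, from 250 bases before to 50 bases after the gene start, of genes whose promoter peak was found only in Tnm2 with DMSO. They are printed in the direction of transcription and were also chosen after their values were seen.
Mageh1 promoter, chrX:153037514-153037813, minus strand: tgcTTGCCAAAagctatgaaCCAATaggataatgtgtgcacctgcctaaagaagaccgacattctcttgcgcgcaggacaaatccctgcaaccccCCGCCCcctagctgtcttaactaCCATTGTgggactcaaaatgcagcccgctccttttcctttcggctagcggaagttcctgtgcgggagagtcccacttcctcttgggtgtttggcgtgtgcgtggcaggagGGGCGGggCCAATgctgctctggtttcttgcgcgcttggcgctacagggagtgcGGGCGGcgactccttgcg
Fas promoter, chr19:34290409-34290708, plus strand: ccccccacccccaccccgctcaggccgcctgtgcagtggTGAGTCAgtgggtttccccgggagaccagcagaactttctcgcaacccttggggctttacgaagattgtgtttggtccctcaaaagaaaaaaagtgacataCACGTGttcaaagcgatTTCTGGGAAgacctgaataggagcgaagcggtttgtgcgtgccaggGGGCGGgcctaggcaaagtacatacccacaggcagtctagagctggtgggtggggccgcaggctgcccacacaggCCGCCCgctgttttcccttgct
Prkaa2 promoter, chr4:105109849-105110148, minus strand: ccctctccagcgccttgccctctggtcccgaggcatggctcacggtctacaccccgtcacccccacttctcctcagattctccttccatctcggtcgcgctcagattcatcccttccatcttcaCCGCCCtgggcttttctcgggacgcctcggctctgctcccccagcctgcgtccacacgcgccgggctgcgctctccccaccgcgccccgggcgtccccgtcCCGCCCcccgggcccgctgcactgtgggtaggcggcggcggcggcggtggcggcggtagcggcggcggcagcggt
The Mageh1 window held 3 SP GC boxes (GGGCGG), 2 NF-Y matches, 1 C/EBP match (TTGCNNAA) and 1 SOX match (ACAATGG). The Fas window held 2 GC boxes, 1 AP-1 match, 1 E-box (CACGTG) and 1 STAT match, and the Prkaa2 window held 2 GC boxes. Of 32619 RefSeq promoters of this length, 35.9% held the GC box, 37.6% the NF-Y letters, 10.9% the C/EBP letters, 3.68% the SOX letters, 7.85% the AP-1 letters, 7.20% the E-box and 8.34% the STAT letters. The 3 windows held 18, 14 and 35 CpG dinucleotides, in that order. A match describes letters and is not evidence of binding.

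The 4 lists differed in length, which bears on every count. Over all chromosomes the Tnm2 lists held 30641 peaks with DMSO, the most of the 4, and 18794 with UNC0638, the fewest. The CK1750 lists held 27367 and 24601. Their sequencing depth is unknown. When each list was reduced to its 18789 highest-scoring peaks, 1613 regions were found only with Tnm2 DMSO, or 9.20% of that list's regions. In the same reduced lists 8.29% of the CK1750 DMSO, 8.97% of the CK1750 UNC0638 and 12% of the Tnm2 UNC0638 regions were found in that list only. Of the 1613 regions, 1043 overlapped a Tnm2 DMSO-only region of the full lists (64.7% of the 1613 and 15.9% of the 6556). The cut kept Tnm2 DMSO peaks with scores of at least 103.3, so Tnm2 DMSO-only regions scoring lower could not appear. The 15.9% therefore follows from the cut. All 1043 lay in the tier of scores of at least 100 and made up 90.6% of its 1151 regions. The Tnm2 DMSO list thus had the highest share of regions of its own at full length and not at equal length.

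In the full lists, only the regions present in all 4 lists (12885) outnumbered the Tnm2 DMSO-only regions. CK1750 with DMSO had 3843 regions of its own (15.8% of its 24261 regions), CK1750 with UNC0638 had 2412, and Tnm2 with UNC0638 had 941. A further 1478 regions were found in both Tnm2 lists and in neither CK1750 list, and 3261 were missing only from treated Tnm2 cells. These groups, the CK1750 DMSO-only regions and the regions present in all lists serve as comparisons below.

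**Figure D1:**
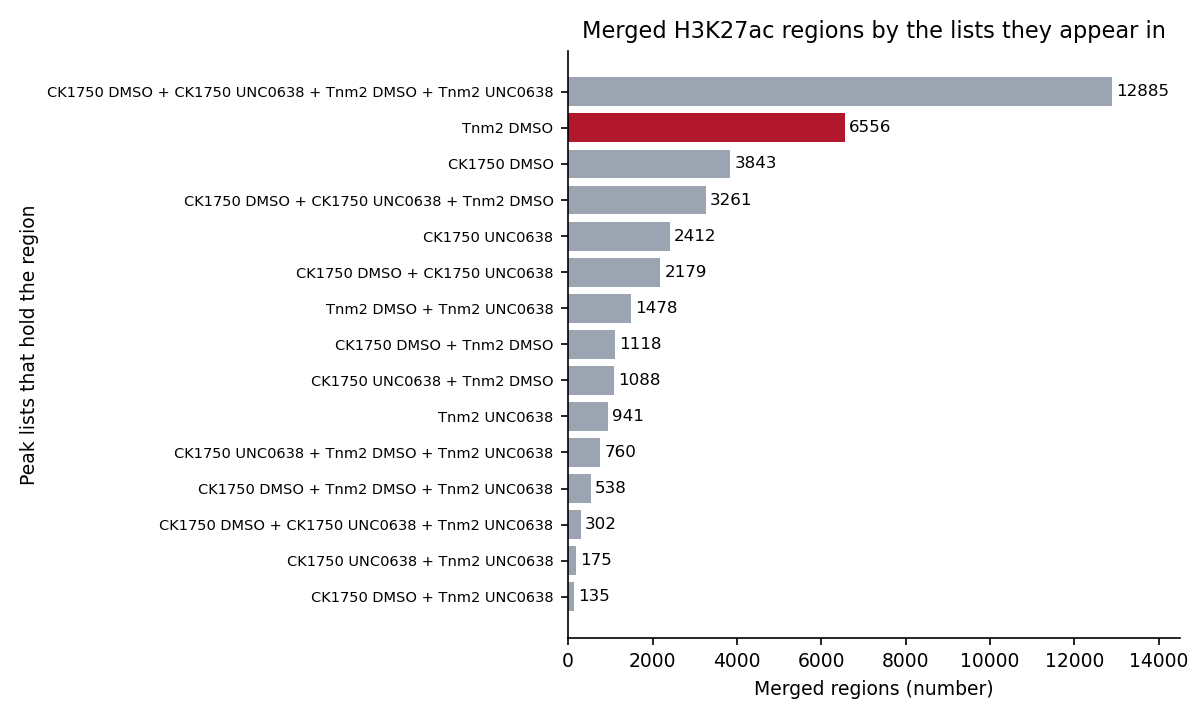
Number of merged H3K27ac regions (x axis) for each combination of peak lists that holds them (y axis), with the Tnm2 DMSO-only regions in red. The 6556 red regions were second in number to the 12885 regions present in all 4 lists.

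The Tnm2 DMSO-only regions were weak and narrow. The score is the log-transformed P value that the peak caller MACS reports, so a higher score means a smaller P value, and 50 was the lowest score kept. Their median score was 66.8, the central 80% lay between 52.05 and 118, and the highest was 1133. The median Tnm2 DMSO score was 122 for regions also kept with UNC0638 in Tnm2 only, 110 for regions missing only from treated Tnm2 cells and 406 for regions present in all lists. Each Tnm2 DMSO-only region held exactly 1 peak. The median width was 528.5 bp, and the regions covered 3.79 Mb in all. Among peaks scoring from 60 to under 100 the widths were closer, with medians of 552 bp for the Tnm2 DMSO-only regions and 590, 591 and 598 bp for the 3 comparison groups named above that hold a Tnm2 DMSO peak.

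The share of Tnm2 DMSO regions found in no other list fell from class to class of score. It was 66.6% from 50 to under 60, 39.7% from 80 to under 100, 22.1% from 100 to under 150 and 0.142% from 300 upwards, the last being 12 of 8450 regions. The 3 regions just above the threshold of 100 had scores of 100.02 (in an intron of Scfd2), 100.08 (272.8 kb from Sox4) and 100.09 (79.6 kb from Pfkfb3). The 3 just below it had scores of 99.97 (in an intron of Antxr1), 99.95 (423.8 kb from Nr3c2) and 99.92 (in an intron of Apba1). Regions on either side of the threshold thus differed by less than 0.2 score units and form no separate classes.

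Many of the regions lay beside a peak of another list, but a close neighbour was not particular to them. Another merged region of any kind lay within 1 kb of 35.0% of them, against 32.9% of all merged regions. For 1715 regions (26.2%, Wilson 95% interval 25.1 to 27.2%) the nearest peak of another list was within 1 kb, and for 4088 it was 1 to 50 kb away. Only 753 (11.5%) lay over 50 kb from any peak of the other lists. Intervals such as this one cover counting error only. Within 10 kb, 53.8% of the regions had a CK1750 DMSO peak, 52.7% a CK1750 UNC0638 peak and 49.7% a Tnm2 UNC0638 peak. The score hardly changed with this distance, with medians of 67.0 within 1 kb, 66.8 from 1 to 50 kb and 65.7 beyond. The nearest coding gene had promoter peaks in all 4 lists for 70.7% of the regions within 1 kb and for 30.5% of those beyond 50 kb. The distance classes partly fix this difference. A region over 50 kb from every peak of the other lists cannot lie close to a promoter with peaks in all 4 lists.

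**Figure D2:**
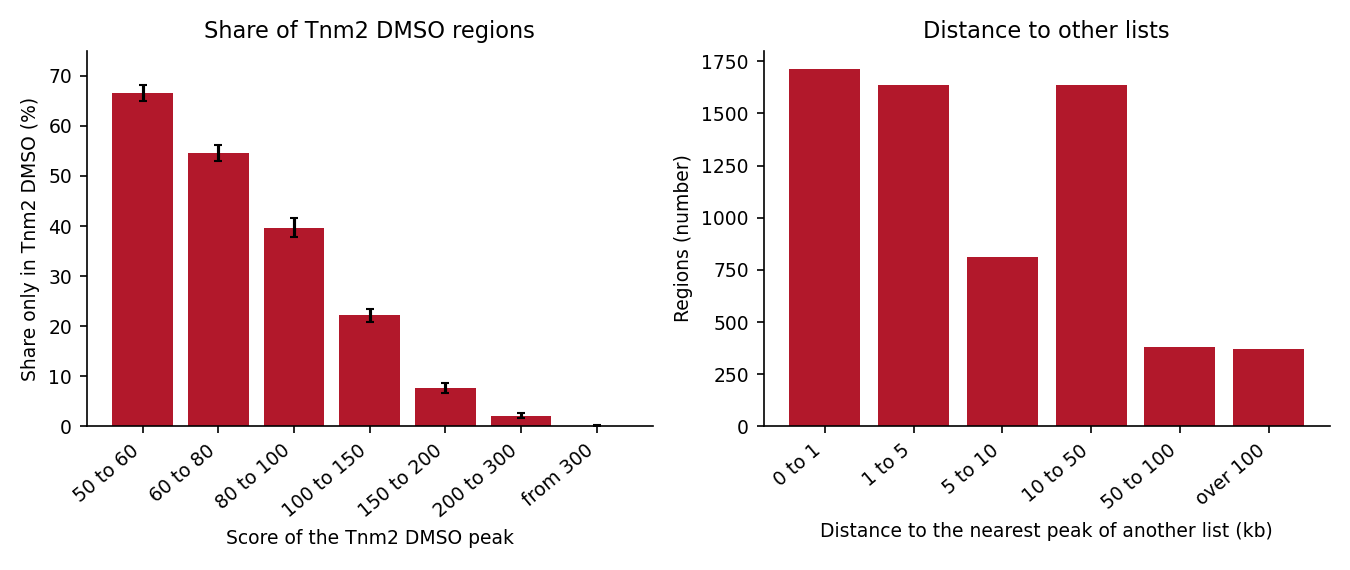
Left, share of regions with a Tnm2 DMSO peak that were in no other list (y axis, %, bars with Wilson 95% intervals) by peak score (x axis). Right, number of Tnm2 DMSO-only regions (y axis) by distance to the nearest peak of another list (x axis, kb), where 1715 lay within 1 kb and 753 beyond 50 kb.

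The regions were mostly away from promoters. A promoter is here 1 kb on each side of an annotated transcription start site (TSS). Of the 6556 regions 1028 overlapped a promoter (15.7%, interval 14.8 to 16.6%), against 21.4% of regions kept with UNC0638 in Tnm2 only, 20.1% of CK1750 DMSO-only regions, 48.9% of regions missing only from treated Tnm2 cells and 65.5% of regions present in all lists. Over all merged regions the share was 38.2%. Region centres lay in introns for 56.9%, between genes for 34.5% and in exons for 8.59%. The median distance from the centre to the nearest coding TSS was 14.3 kb, compared with 7.26 kb over all merged regions and 0.408 kb for regions present in all lists.

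The low promoter share also held within score classes. Between scores of 60 and 80 it was 14.0% (12.5 to 15.5%) for the Tnm2 DMSO-only regions and 17.1% (12.7 to 22.6%) for regions kept with UNC0638 in Tnm2 only, intervals that overlap. In the same class it was 45.0% (40.8 to 49.3%) for regions missing only from treated Tnm2 cells and 46.3% (39.8 to 53.0%) for regions present in all lists, both above the interval of the Tnm2 DMSO-only regions. From 100 to 150 the values were 19.4%, 19.8%, 51.7% and 46.1% in the same order. In each score class the interval of the Tnm2 DMSO-only regions overlapped that of the regions kept in Tnm2. From 50 to 300 it lay below those of the regions shared with CK1750.

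**Figure D3:**
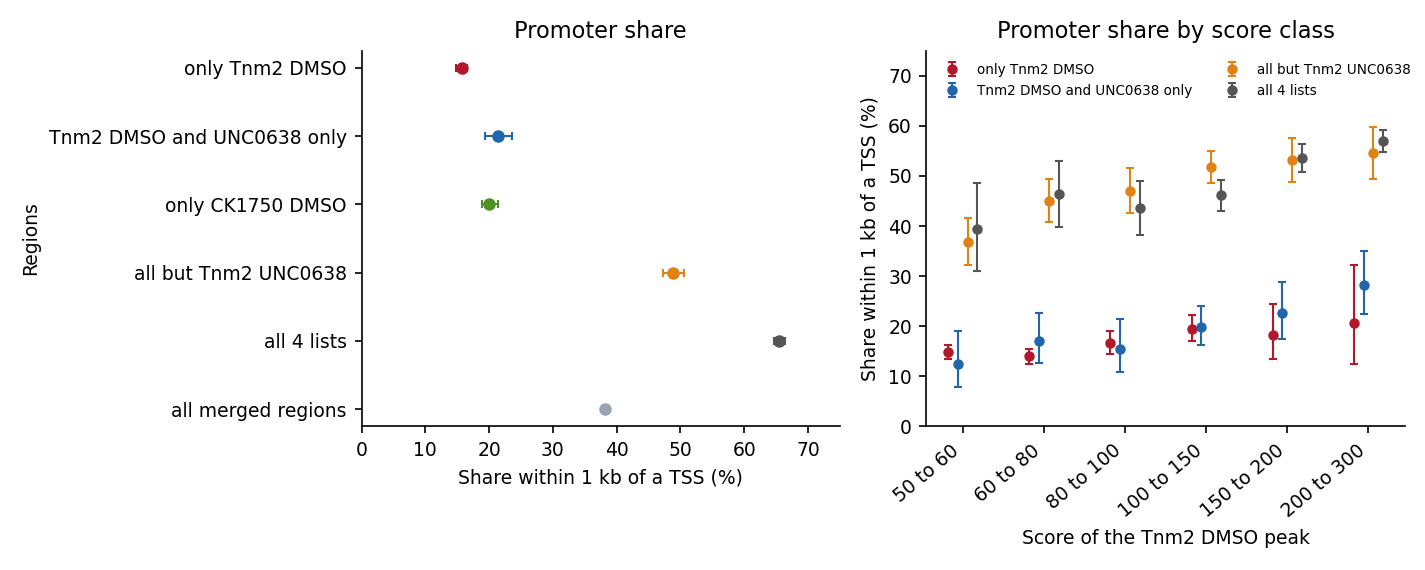
Share of regions within 1 kb of a TSS (%) for each kind of region (left, x axis) and by score class of the Tnm2 DMSO peak (right, y axis), as points with Wilson 95% intervals. The Tnm2 DMSO-only regions (red) were lowest on the left at 15.7% and lay beside the regions kept in Tnm2 (blue) in each score class on the right.

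The genes nearest to the regions often had promoter peaks in every list, though less often than over all merged regions. For 4083 regions (62.3%, interval 61.1 to 63.4%) the nearest protein-coding gene had a promoter peak in all 4 lists. For 1094 (16.7%) it had none in any list. The same shares were 67.7% and 12.2% over all merged regions, and 58.3% and 18.6% for regions kept with UNC0638 in Tnm2 only. Another merged region lay within 1 kb of 35.0% of the regions, against 32.9% of all merged regions, and 7.87% had no other region within 50 kb, against 8.43% of all merged regions.

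Median GC content was 48.6%, against 50.3% over all merged regions and 52.8% in regions present in all lists, and the observed over expected CpG ratio had medians of 0.175, 0.234 and 0.521. Near-identical copies elsewhere in the genome were found for 65 regions (0.991%), compared with 2.24% of all merged regions, 1.35% of those kept with UNC0638 in Tnm2 only, 1.24% of those present in all lists and 8.59% of the CK1750 DMSO-only regions. The origin of the reads in these 65 regions is uncertain.

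Motif letters were searched on both strands of the central 500 bases. AP-1, the dimer of Fos and Jun proteins that opens many epithelial enhancers, was matched in 1370 Tnm2 DMSO-only regions (20.9%, interval 19.9 to 21.9%). Outside promoters the share was 22.2% (21.1 to 23.3%), against 25.7% (25.1 to 26.4%) of all other merged regions, 23.2% of regions kept with UNC0638 in Tnm2 only, 21.2% of CK1750 DMSO-only regions and 29.9% of regions present in all lists. Both groups limited to 1 untreated line thus had fewer AP-1 matches than the regions shared by all lists. At scores from 60 to under 100 the distal AP-1 share was 21.8% (20.3 to 23.5%) for the Tnm2 DMSO-only regions and 25.8% (24.0 to 27.6%) for other regions with such a Tnm2 DMSO score. The difference was not even over that range. From 60 to 80 the share was 20.5% (18.6 to 22.4%), against 34.2% (26.2 to 43.2%) in regions present in all lists, while from 80 to 100 it was 24.7% (21.9 to 27.7%) against 24.3% (18.6 to 31.1%).

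The forkhead (FOX) letters TGTTTAC, bound by FoxA and FoxP factors of the lung and gut epithelium, went the other way. Outside promoters they were present in 9.59% of the Tnm2 DMSO-only regions (interval 8.84 to 10.4%) and in 8.35% of all other merged regions (7.95 to 8.76%). The share was 11.1% (9.26 to 13.3%) at scores of at least 100, 9.22% (7.68 to 11.02%) in regions kept with UNC0638 in Tnm2 only and 7.88% (6.98 to 8.88%) in CK1750 DMSO-only regions. At scores from 60 to under 100 the intervals overlapped, with 9.23% (8.17 to 10.4%) of the Tnm2 DMSO-only regions and 8.60% (7.49 to 9.85%) of the other regions. Over all scores FOX was the 1 motif of 20 whose interval lay above that of all other regions. The intervals of 5 motifs lay below it, namely AP-1, TEAD (26.9% against 28.9%), the SP GC box (9.37% against 12.1%), KLF (GGGTGTGG, 6.02% against 7.38%) and CRE (TGACGTCA, 0.145% against 0.394%). At scores from 60 to under 100 the intervals of these motifs other than AP-1 overlapped, with 26.5% against 28.6% for TEAD, 10.5% against 11.3% for the GC box, 5.80% against 7.73% for KLF and 0.156% against 0.368% for CRE. For the other 14 motifs the intervals overlapped. These included the letters of NK2 homeobox factors such as Nkx2-1 (CAAGTG), of RUNX (TGTGGTT) and of the GATA family of zinc finger proteins (AGATAAG). They also included ETS (CCGGAAGT), HNF4 (CAAAGTCCA) and the CTCF core (AGGGGGCGC), besides C/EBP, SOX, NF-Y, the E-box, STAT, NRF2, NF-kB and IRF. Over all merged regions outside promoters, AP-1 was present in 24.9%, FOX in 8.64%, TEAD in 28.4%, the GC box in 11.4%, KLF in 7.06% and CRE in 0.335%. Base composition also differed between these groups, and its part in the motif shares was not tested.

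**Figure D4:**
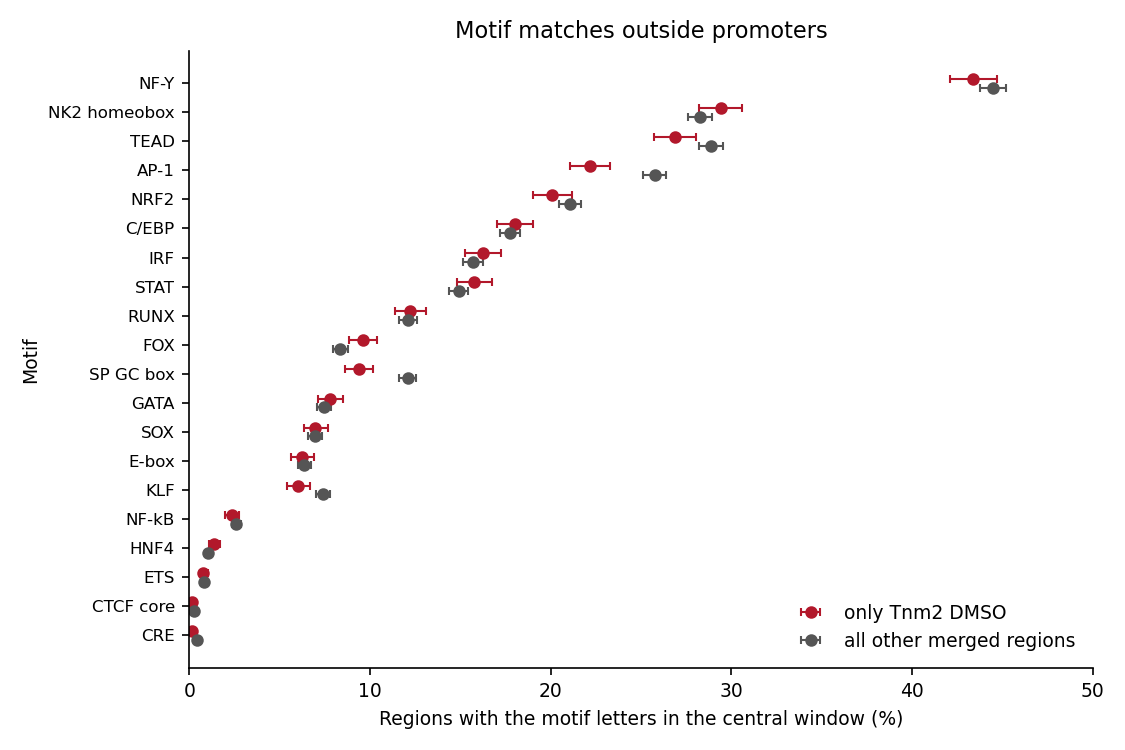
Share of regions outside promoters whose central 500 bases hold the letters of each motif (x axis, %), for the Tnm2 DMSO-only regions (red) and all other merged regions (grey), with Wilson 95% intervals. AP-1 stood lower in the red set (22.2% against 25.7%) and FOX higher (9.59% against 8.35%).

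The highest-scoring Tnm2 DMSO-only region stood apart from the rest. It covered chr11:3138167-3149057 in Sfi1, which encodes a centrin-binding protein of the centrosome, had a score of 1133 and was 10891 bp wide, while the next score was 467. The search, which asked for at least 80% of the region, found no near-identical copy, and copies of a shorter part would not have been counted. No filter for artefact-prone regions of the genome was applied, and whether this signal is an artefact was not tested. The next regions were in an intron of Prrc2b (467), 78.7 kb from Gm4791 (424), at the promoter of Csad (381), 193.3 kb from Egln3 (380) and in an intron of Galnt2 (358). Csad encodes an enzyme of taurine synthesis, Egln3 an oxygen-sensing prolyl hydroxylase and Galnt2 an enzyme of O-linked glycosylation.

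Further down were regions at the promoter of Myo10 (339), 48.5 kb from Rbpms (328), in Vcam1 (317), in Uvrag (312) and in Dapp1 (304). The Csad and Myo10 regions were centred in introns within 1 kb of a TSS, and both genes had promoter peaks in all 4 lists. Myo10 is a myosin of filopodia and Vcam1 an adhesion molecule for leukocytes. The remaining 9 of the 20 highest-scoring regions, with scores from 302 down to 259, were nearest to Zfp575, Ankrd55, Mageh1, Tfcp2l1, Lama5, Actr3, Plekha7, Sema4g and Ppfibp1. Lama5 encodes a laminin chain of epithelial basement membranes, and Plekha7 a protein of adherens junctions. Of these 20 regions 12 were centred in introns, 7 overlapped a promoter, and 11 had a nearest coding gene with promoter peaks in all 4 lists. In 8 of the 20 a peak of another list lay within 1 kb, at 0.075 kb for Uvrag and 0.157 kb for Plekha7, so that these regions sat at the flank of an element called elsewhere. The Ankrd55 region, in contrast, was 120.6 kb and the Mageh1 region 266.7 kb from any peak of another list.

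Few gene promoters were limited to untreated Tnm2 cells. Of 10479 protein-coding genes with a Tnm2 DMSO promoter peak, 312 had no promoter peak in another list (2.98%). Of these, 80 had a Tnm2 DMSO-only region at the promoter with a score of at least 100. Over all genes of the 312 with a Tnm2 DMSO-only region there, at any score, the median score was 72.8. For 308 of the 312 all merged regions at the promoter were Tnm2 DMSO-only. The others had a merged region there that also held a peak of another list beyond the promoter. By the measure that gave the 312, 275 genes were limited to CK1750 DMSO, 144 to CK1750 UNC0638, 39 to Tnm2 UNC0638 and 132 to both Tnm2 lists, while 8326 had promoter peaks in all 4 lists.

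The highest-scoring promoters of this kind were those of Sfi1 (1133), Ethe1 and Zfp575 (302, 1 shared region), Mageh1 (279), Cst9 (204), Zcchc24 (204), Ugt1a7c (196) and Rufy4 (185). The Sfi1 region is the wide one described above, whose signal may be an artefact. The Rufy4 region, chr1:74123882-74124945, also spanned the annotated start of Tns1 and is counted with Tns1 below. Ethe1 encodes a mitochondrial enzyme of sulfide breakdown, Cst9 a cystatin-type protease inhibitor and Ugt1a7c a glucuronidation enzyme. Starts of shorter annotated transcripts count as promoters, and the regions of Sfi1, Ugt1a7c and, below, Kcnk2 and Tgfbi lay at such inner starts. Other genes among the 312, named here after their values were seen, included Gucy1a2 (185), a subunit of the nitric oxide receptor, and Kcnk2 (182), a potassium channel. Prkaa2 (176) encodes a catalytic subunit of the energy sensor AMPK, Fas (168) a death receptor, Adamts9 (160) a matrix protease and Sdc2 (158) a cell surface proteoglycan. The Fas promoter region was 62.5 kb from the nearest peak of another list, the Sdc2 region 161.1 kb and the Gucy1a2 region 127.9 kb. The Egfr promoter, of the epidermal growth factor receptor, carried a region at chr11:16752260-16753105 with a score of 139, and the nearest peak of another list was 16.6 kb away.

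Promoters without a protein-coding gene were also among the regions. Of the 1028 promoter regions 743 overlapped a coding TSS and 285 a noncoding TSS only. Scores reached 100 in 160 of the first and 65 of the second.

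The regions were spread over many genes, and a few genes were nearest to many of them. They were nearest to 3702 protein-coding genes, of which 2332 had exactly 1 region and 173 had 5 or more. The largest number lay nearest to Gse1, which encodes a subunit of a histone deacetylase complex, where 19 of 40 Tnm2 DMSO regions were found in no other list. Tns1 and Tns3, which encode tensins that link integrins to actin, had 17 of 29 and 14 of 43. Tmem189, whose neighbourhood includes the gene for the transcription factor Cebpb, had 16 of 27.

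Chn2, a Rac-regulating protein, had 15 of 35 and Ank, a pyrophosphate transporter, 14 of 37. The oncogene Myc had 13 of 45, spread over 1403 kb, and Dusp10, a phosphatase of stress kinases, 12 of 33. Foxq1, a forkhead factor, had 12 of 19 (63.2%) and Vps13d, a lipid transfer protein, 11 of 16 (68.8%). Zmiz1 also had 11 and is left out of the plot of the 10 genes. The scores in these neighbourhoods were low, with medians per gene between 60.25 and 79.15. In Tns1 the highest score was 251 and in Foxq1 173. These loci also differed in what surrounded the regions: Tns3 had 14 and Myc 18 regions present in all 4 lists, while Tns1 and Vps13d had 2 each. The genes were ranked by number, so a locus with many Tnm2 DMSO regions can rank high. Over all Tnm2 DMSO regions the share found in no other list was 23.7%. Among the 10 genes it ran from 28.9% at Myc and 32.6% at Tns3 to 68.8% at Vps13d. A long gene offers more room for regions, and no adjustment for gene length was made.

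**Figure D5:**
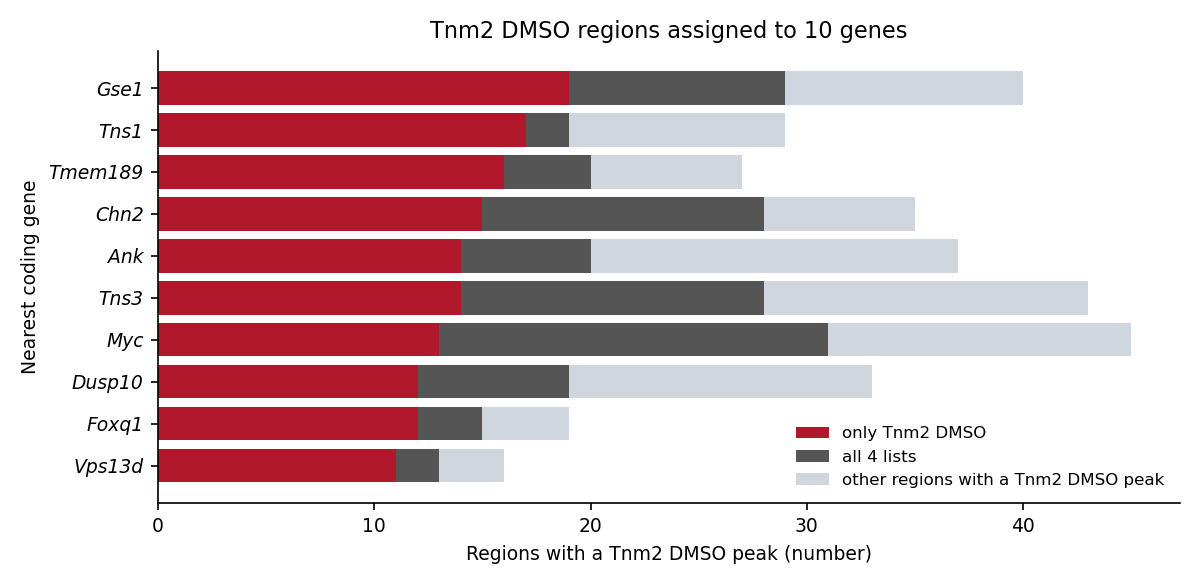
Number of regions with a Tnm2 DMSO peak (x axis) assigned to each of the 10 coding genes with most Tnm2 DMSO-only regions (y axis), split into those in no other list (red), in all 4 lists (dark grey) and in other combinations (light grey). The red part ranged from 11 regions at Vps13d, a number that Zmiz1 also had, to 19 at Gse1.

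Neighbouring regions sometimes followed each other with no other merged region between them. Most stood alone (3884) or in pairs (840 pairs), and 992 regions (15.1%) lay in 297 runs of 3 or more. This share is not compared with other groups here, so it is a description only. The densest of the longest runs held 8 regions in 23.9 kb at chr2:148823892-148847746, over the cystatin genes Cst13 and Cst9 and the gene 9230104L09Rik, with scores from 50.1 to 204 and 4 scores of at least 100. Another 8 regions followed each other over 247.1 kb near Fer1l6 and Tmem65, with no score above 82.0. Next came 7 regions in Vps13d (maximum 121), 6 next to the adrenergic receptor gene Adra1b (maximum 180) and 6 in Cald1, which encodes an actin-binding protein (maximum 121). Further runs of 6, near Tnp1 and Tns1 and near Pced1b, were equal in length to the last of these.

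Gene lists were then examined, to show which known programmes had such a region within 50 kb of the gene. Over all 21755 protein-coding genes the share was 33.7%, and over genes with any Tnm2 DMSO region in the window it was 44.9%. Windows of neighbouring genes can share a region. A score given with a gene is that of the highest-scoring region in its window, which can lie at a neighbouring gene. A window with many H3K27ac regions has more chances to hold one. Each list is given as a count, to be set beside 33.7%. It is also given as a share of its genes with any Tnm2 DMSO region, to be set beside 44.9%. No list was tested.

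Lung lineage factors had a region in 11 of 20 genes, or 64.7% of those with any Tnm2 DMSO region. Foxp1, a forkhead repressor of the airway epithelium, had 7 of 23 Tnm2 DMSO regions and a top score of 225. Grhl2, which maintains epithelial junctions, had 5 of 13 (203), Cebpa, a differentiation factor of alveolar cells, 3 of 10 (199) and Foxp2 2 of 3 (144). Nkx2-1, the master regulator of the lung lineage, had 3 of 7, all below a score of 100, and its promoter had a peak in every list.

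Among genes of differentiated lung cells, 5 of 14 alveolar type 2 genes, 4 of 12 alveolar type 1 genes and 5 of 8 club cell genes had a region. These were 50%, 40% and 71.4% of the genes with any Tnm2 DMSO region, in that order. Among type 2 genes the top scores were in the windows of Sftpb, a surfactant protein (134), and Muc1, a membrane mucin (107). The region in the Muc1 window lay at the Efna1 promoter. Lower scores were those of the fatty acid synthase gene Fasn (73.3) and Lpcat1, an enzyme of surfactant lipid synthesis (66.9). Among type 1 genes Igfbp2 had 2 regions with a top score of 217, and these were the only Tnm2 DMSO regions in its window, while the regions of Aqp5, Ager and Vegfa scored 57.0 or less. Among club cell genes the top scores were in the windows of Scgb1a1 (122), Cyp2f2 (112), Aldh1a1 (92.2) and Gabrp (79.3). The Scgb1a1 region lay 38.6 kb from the nearest coding TSS, and the region in the Cyp2f2 window lay at the Cyp2t4 promoter.

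The gastrointestinal programme, which lung adenocarcinoma cells can take up when they lose Nkx2-1 activity, had a region in 11 of 19 genes (78.6% of those with any Tnm2 DMSO region). High scores were found at the hepatocyte nuclear factor Hnf4a (122, 3 of 19 regions), the lectin gene Lgals4 (105, 6 of 14) and the gastrokine Gkn1 (103, 2 of 3).

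Epithelial genes had a region in 11 of 18 and mesenchymal genes in 9 of 16 (61.1% and 60% of those with any Tnm2 DMSO region). Cdh1, which encodes E-cadherin, had 4 of 24 regions with a top score of 190, Ovol2, a repressor of mesenchymal genes, 2 of 6 (129), Krt7 1 of 5 (101) and Cldn7 2 of 9 (73.4). On the mesenchymal side were Vim (vimentin, 116), Fn1 (fibronectin, 86.0), Tgfbi (82.3) and Sparc (75.6). Tgfbi and Egfr were the 2 listed genes with a promoter peak in the Tnm2 DMSO list only. The Tgfbi promoter region had a score of 68.6.

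Matrix and adhesion genes had a region in 13 of 22, or 65% of those with any Tnm2 DMSO region. They were headed by Lama5 (272), the integrin Itga6 (158), Lamb3 (125) and the basement membrane collagen Col4a1 (114). The Col4a1 region lay within the window of Col4a2 as well. Matrix metalloproteinases and their Timp inhibitors had one in 7 of 19 (53.8% of those with any Tnm2 DMSO region). Timp3 had 4 of 6 Tnm2 DMSO regions in its window (top score 139), while Timp2 (65.7), Mmp14 (64.2) and Mmp28 (62.4) scored lower. The region in the Mmp14 window lay at the Rem2 promoter.

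Of the signalling lists, receptor tyrosine kinase and Ras-MAPK genes had a region in 19 of 32, TGF-beta genes in 13 of 20, YAP/TEAD genes in 11 of 16 and Wnt genes in 8 of 23. These were 61.3%, 68.4%, 68.75% and 47.1% of the genes with any Tnm2 DMSO region, in that order. The first list was headed by the receptor gene Met (175), the ETS factor Etv4 (157), Egfr (139) and the Ras-MAPK inhibitor Spred2 (122, 7 of 12 regions). In the TGF-beta list the inhibitory factor Smad7 had 7 of 21 regions (169), the receptor Acvr1 8 of 15 (160), Ski 3 of 15 (112) and Smad3 2 of 16 (107). In the YAP/TEAD list these were Amotl1 (226), a binding partner of Yap, Tead4 (123, 6 of 14 regions), the target gene Ctgf (101) and Tead1 (85.8). In the Wnt list they were the receptor Fzd7 (197) and the nuclear factors Tcf7l1 (135), Tcf7 (117) and Tcf7l2 (101, 2 of 22 regions).

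AP-1 genes had a region in 5 of 13 (38.5% of those with any Tnm2 DMSO region). They were headed by Maff (133), Fosl2 (98.3), Fos (79.8) and Mafk (78.5, a region at the Tmem184a promoter). Semaphorin, ephrin and axon guidance genes had one in 16 of 29 (64% of those with any Tnm2 DMSO region). These were headed by Sema3b (177), Sema3a (153) and the semaphorin receptors Plxna2 (147) and Plxna1 (123).

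Genes that write, read or erase chromatin marks were also among them. Genes of H3K9 methylation and demethylation had a region in 9 of 16 (56.25% of those with any Tnm2 DMSO region). Among them were Cbx5, which encodes HP1 alpha, a reader of methylated H3K9 (233, 4 of 9 regions), the demethylase Kdm7a (154), Cbx1 (137) and Cbx3 (113). The region within 50 kb of Ehmt2, the gene of G9a, had a score of 67.45 and lay outside that gene. Genes of H3K27 acetylation had one in 9 of 16 (60% of those with any Tnm2 DMSO region). Among them were the deacetylase Hdac7 (173, 4 of 14 regions), the acetyltransferase Kat2a (118) and the acetyl-lysine reader Brd3 (115). Of the genes that the text of the study names as regulated by G9a, Anxa10 (73.8) and Ctse (62.5) had a region. Ly6a (Sca-1), Mmp10, Mmp13 and Lcp1, also named there, had none within 50 kb. The Ctse region lay outside that gene, at the Rab7b promoter and 0.256 kb from the nearest coding TSS. These genes belong to a list of 10 genes put together around the study, of which 6 had a region (85.7% of those with any Tnm2 DMSO region). The list is not independent evidence, and some of its genes are not named there as such. In the list, Mcpt2, Mcpt4 and Mcpt8, mast cell proteases, shared 1 region (107).

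Markers were used to check the label of the cells. In the Tnm2 DMSO list the promoters of Nkx2-1, Foxa1, Foxa2, Cdh1, Krt8, Krt18 and Krt19 carried peaks, those of Epcam, Sftpa1, Sftpb, Sftpc, Sftpd and Lamp3 did not, and Abca3 did. The list held promoter peaks for 0 of 8 immune, 0 of 8 endothelial, 0 of 8 neuroendocrine and 1 of 8 fibroblast markers (Col1a1). Over the whole lists, 14 of 20 lung lineage factors, 10 of 18 epithelial genes and 10 of 16 mesenchymal genes had a promoter peak. Mesenchymal genes with one included Vim, Cdh2, Zeb1, Zeb2, Fn1 and Sparc, and epithelial genes without one included Esrp1, Ovol1, Cldn3, Cldn4, Cldn7, Rab25 and Dsp. The markers were thus mixed, with lung factors and keratins beside mesenchymal genes and without surfactant genes. Within 50 kb of the marker genes, Tnm2 DMSO-only regions lay near 4 of 8 immune markers (scores of at most 94.05, at Itgam), 2 of 8 endothelial, 2 of 8 fibroblast and 1 of 8 neuroendocrine markers. Among markers with any Tnm2 DMSO region these were 4 of 7, 2 of 5, 2 of 3 and 1 of 2, in that order. The endothelial markers with a Tnm2 DMSO-only region were Tie1 (237, 4 of 6 regions) and Pecam1 (116), neither with a promoter peak in any list. The fibroblast ones were Col1a1 (61.1) and Pdgfrb (57.6), and the neuroendocrine one was Neurod1 (79.4).

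The share of Tnm2 DMSO regions found in no other list varied between chromosomes. It was highest on chromosome 6 (28.6%, interval 26.6 to 30.7%), 18 (28.0%) and 1 (27.9%) and lowest on chromosomes 10 (19.0%), 17 (18.7%) and X (16.3%, 13.2 to 20.02%). The intervals of the first and the last did not overlap. Per megabase the number ran from 0.433 on X to 5.16 on chromosome 19. Copy number of the chromosomes in Tnm2 was not measured here, and its part in these shares was not tested.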

How the data were processed

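The 9 H3K27ac samples of 4 groups entered, grouped by line and treatment as the labels give them, while the 21 H3K9me2 and input samples were not analysed here. The authors mapped reads to mouse build 38 (mm10) with bowtie2 and called peaks with MACS 1.4.2, keeping P values up to 1e-05. They deposited 1 list per group, marked as merged, with a score for each peak, the log-transformed P value, so that 50 equals the cutoff. Which libraries entered a list, and whether input DNA was the control, is not given in the sources used here. Scores depend on depth, which is unknown, and were compared only within the Tnm2 DMSO list, apart from the alternatives that shorten the lists.

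Peaks were merged when they overlapped or touched. GENCODE M 21 supplied 53843 genes and 130677 TSS positions. Shares have Wilson 95% intervals. Near-identical copies were minimap2 2.31 alignments elsewhere covering at least 80% at 95% identity. Promoter sequences were those of RefSeq on GRCm38.p6. Ctgf and Cyr61 were matched through RefSeq synonyms. The merging and motif search were tested on simulated lists. Python 3.11.15, numpy 2.4.6, pandas 2.3.3, scipy 1.17.1, pysam 0.24.0 and matplotlib 3.10.9 were used.

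Genes were named by rule: the 20 highest-scoring regions, the 10 genes nearest to most regions, up to 4 genes per list by top score within 50 kb, the 5 longest runs, the 8 highest-scoring promoters with no other region, and 3 regions on each side of the threshold. Exceptions are stated, and some genes that the rule names are not reported here. The regions, gene lists and motifs were chosen with earlier results of these data known. Alternatives changed the score filter, merging distance, list length, windows, TSS set and chromosomes.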

Additional observations from a re-analysis of the deposited data

Results flagged for a closer look

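Regions found in 1 list only were also compared between treatments in each line, over 7 measures. For 4 of these the difference, UNC0638 minus DMSO, had opposite signs in the 2 lines. The difference between the lines was not tested, since each group has 1 list. In Tnm2 all 4 differences were small and are given without intervals, so their signs are not read as effects of UNC0638. The promoter share was 15.7% for Tnm2 DMSO-only and 16.8% for Tnm2 UNC0638-only regions, a difference of 1.11 percentage points, and 20.1% and 18.9% in CK1750, a difference of -1.20. Near-identical copies were found for 0.991% and 1.38% in Tnm2, a difference of 0.39, and for 8.59% and 1.04% in CK1750, a difference of -7.55. Median GC content differed by 0.29 percentage points in Tnm2 and by -0.71 in CK1750. The share with another region within 1 kb was 35.0% and 34.8% in Tnm2, a difference of -0.27, and 33.1% and 40.1% in CK1750, a difference of 7.01.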

How the results depend on the processing

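Of 19 alternatives, 8 stayed within 1.5 times the reported count or within the interval of the reported share, and 11 did not. The number of Tnm2 DMSO-only regions was 3263 with only peaks of a score of at least 100 in all 4 lists and 1613 with lists of equal length, and it lay between 4475 and 6491 under the other 4 alternatives. A threshold of 150 in place of 100 left 266 regions. The promoter share was 26.1% with a window of 2.5 kb, 11.3% with coding TSSs only and 19.5% at scores of at least 100. The AP-1 share was 12.8% in the central 300 bases, 37.6% in the central 1000 bases, 22.2% outside promoters and 19.7% at scores of at least 100. The AP-1 share of regions present in all lists was below that of the Tnm2 DMSO-only regions at each window when promoters were included (9.95%, 16.0% and 28.1%), while outside promoters it was above (29.9% against 22.2%). Genes with a promoter peak only in the Tnm2 DMSO list numbered 84 when that peak had to reach a score of 100. That count includes peaks in merged regions shared with another list. No paired analysis was possible because each group has 1 merged list with no values per library, and for the same reason no replicate could be left out. The depth of the lists is unknown, so an absent peak means only that none passed the cutoff.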

Other observations

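Among the Tnm2 DMSO-only regions farther than 50 kb from any peak of another list, the highest scores lay away from annotated promoters with 1 exception, Mageh1. They were 96.2 kb from Ankrd55 (279), 316.3 kb from Cyp7b1, an oxysterol hydroxylase (253), 159.0 kb from Fam49a (234) and 325.3 kb from Ddhd1 (220). Others lay in introns of Tmprss4, a membrane serine protease (211), Zfp804a (202) and Brinp1 (200). The Brinp1 region was 1383 kb from the nearest peak of another list. These regions were named after their values were seen.

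The highest scores at promoters of noncoding genes only were those of Gm43109, antisense to Vcam1 (317), 4930414N06Rik near Sema4g (264), and a snoRNA gene, Gm25094, 390.7 kb from Adamts9 (210). A region in the imprinted Gnas locus, at the noncoding gene Gm27869 and within Nespas, had a score of 191 and lay 31.5 kb from the nearest peak of another list.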
